A study of Mus musculus with 18 samples.

Results

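The genes described here lie within 2 Mb of the 2 genes targeted in the double knockout (DKO). There are 6 near Hmgn2 on chromosome 4 (Dhdds, Cnksr1, Gpatch3, Kdf1, Trnp1 and Stmn1) and 4 near Hmgn1 on chromosome 16 (Brwd1, Pcp4, Dyrk1a and Vps26c). Other genes lie between some of them and the targeted gene. These 10 were chosen by name, with earlier results of these data known. All 10 are among the 32532 gene symbols measured at E17 and the 19450 measured at P5. RNA was sequenced from the epithelium of mouse molar tooth germs, freed from the mesenchyme with dispase, in wild-type mice and in mice labelled DKO, at embryonic day 17 (E17) and postnatal day 5 (P5), with 3 libraries per group and 12 in all. The labels give no further treatment, strain, sex or design of the alleles, and the identity of the targeted genes comes from what is known of the study. Nor do they tie any library to an animal or a pool, and the p-values therefore measure the spread among these libraries, which may be technical. Libraries are written WT 1 to WT 3 and DKO 1 to DKO 3, by replicate number.

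HMGN proteins bind nucleosomes and are known for keeping chromatin open at promoters and enhancers. Genes next to an engineered allele are commonly looked at apart from the rest of the genome, since a local effect of an allele would be seen there. The human counterparts of Hmgn1 and of the 4 genes near it lie in the Down syndrome region.

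Levels are taken as RPKM, reads scaled by transcript length and by the mapped reads of the library, summed over the transcripts of a gene. Differences are log2 fold changes of RPKM + 1, double knockout over wild type, first as deposited and then after bringing the upper quartile of all libraries of a stage to one value (scaled). A gene is said to have risen or fallen only where it passed in the same direction both ways (limma, Benjamini-Hochberg adjusted p under 0.05 over all genes of the stage). Libraries held 65953495 to 99967427 alignments at E17 and 39209676 to 72660832 at P5. As deposited, the median log2 fold change of all genes was 0.25 at E17 and -0.25 at P5, and after scaling it was -0.00 and -0.06.

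Hmgn2 stood at 354, 344 and 320 RPKM in wild type and at 0.839, 0.953 and 0.975 in DKO at E17. Its P5 values were 183, 166 and 166 RPKM against 9.05, 5.44 and 10.4. Hmgn1 kept more of its RNA, with 133, 129 and 123 against 86.2, 92.9 and 92.7 RPKM at E17 and 187, 190 and 179 against 72.6, 69.8 and 72.2 at P5. Both genes were lower in every library labelled DKO than in every wild-type library. Summed RPKM of 8 dental epithelium markers was 2232 to 2648 in wild type and 2595 to 2708 in DKO at E17, and 4067 to 4821 against 4106 to 4197 at P5. Summed RPKM of 7 mesenchyme markers was 4132 to 4511 against 2450 to 2663 at E17 and 1870 to 2077 against 830 to 1184 at P5, so RNA of mesenchyme was present in all groups. No measured marker of the 9 lists summed here was listed at 0 in every library of a stage, and Flg and Ivl of the cornifying list were not measured at P5. In such bulk samples fewer cells of a type and less RNA per cell cannot be told apart.

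Since the 10 genes were chosen with earlier results known, their counts are given beside the shares of all genes as a description only. At E17, 6 of the 10 genes passed, 5 upward (Kdf1, Trnp1, Cnksr1, Stmn1 and Pcp4) and 1 downward (Dhdds), where 9.69% of all 13728 genes tested passed, 6.61% upward and 3.07% downward. At P5, 7 of 10 passed, 2 upward (Gpatch3 and Dyrk1a) and 5 downward (Dhdds, Stmn1, Brwd1, Pcp4 and Vps26c), where 38.1% of 11423 genes passed, 7.35% upward and 30.8% downward. Counted as deposited, 7 members passed upward and 1 downward at E17 (56.3% and 3.3% of all genes) and 2 and 5 at P5 (7.36% and 58.2%). After scaling, 5 and 2 passed at E17 (6.61% and 8.03%) and 2 and 5 at P5 (19.4% and 30.8%). The groups did not overlap for 8 members higher and 1 lower in DKO at E17 (60.9% and 3.83% of all genes) and for 2 higher and 6 lower at P5 (8.66% and 61.8%). The genotype difference changed between the stages for 6 of the 10, each toward lower values at P5, where 30.1% of all 11050 genes passed in either direction, 27.5% below 0 and 2.61% above. The median log2 fold change of the 10 genes was 0.39 at E17 (0.17 scaled) and -0.33 at P5 (-0.15 scaled). Dhdds alone fell at both stages, and Stmn1 and Pcp4 rose at E17 and fell at P5. The count at E17 was the less steady one: it was 3 in place of 6 without WT 3, without DKO 2 or without DKO 3, and 2 (Dhdds and Trnp1) with no filter on low values.

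**Figure D1:**
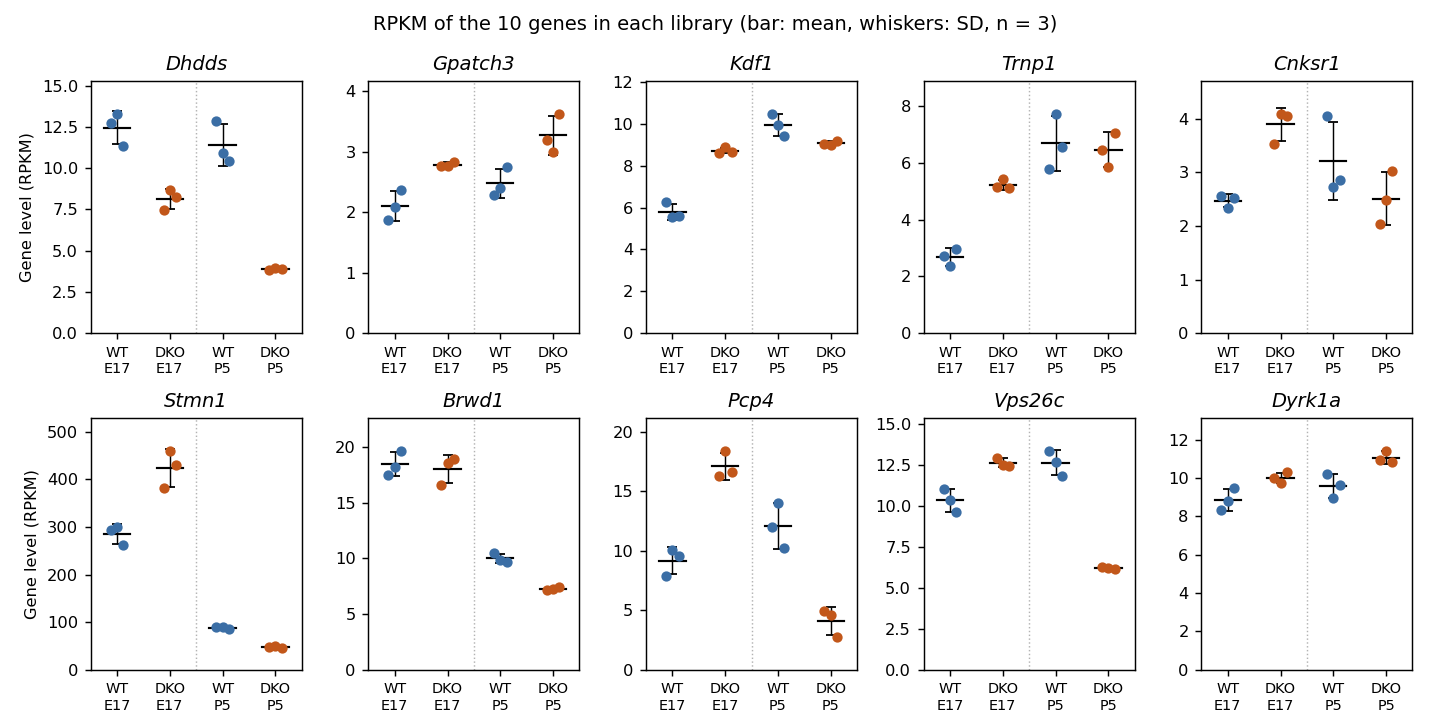
Gene level in RPKM (y axis, linear from 0) of each of the 10 genes in every library, grouped by genotype and stage on the x axis. Points are libraries, bars group means and whiskers the SD of 3 libraries. Dhdds is lower in DKO at both stages, and Stmn1 and Pcp4 are higher at E17 and lower at P5.

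**Figure D2:**
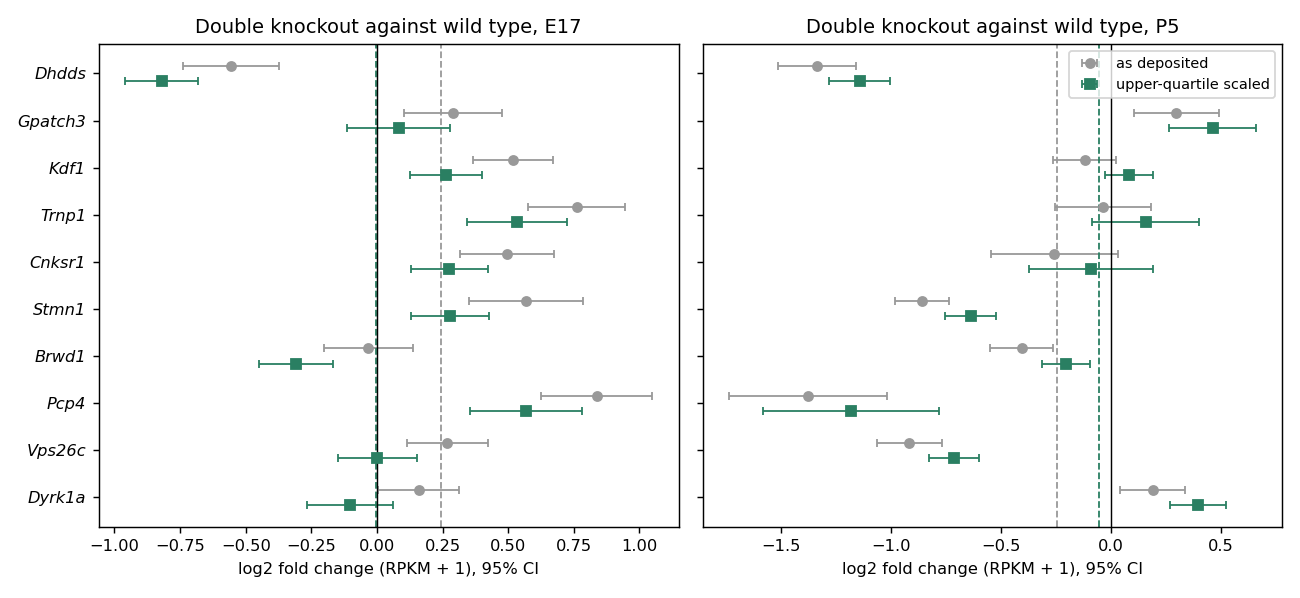
Log2 fold change of RPKM + 1 (x axis) for each gene as deposited (grey circles) and after upper-quartile scaling (green squares), with 95% confidence intervals. Dashed lines mark the medians of all genes, 0.25 and -0.00 at E17 and -0.25 and -0.06 at P5. Dhdds, Stmn1, Brwd1, Pcp4, Vps26c and, narrowly, Cnksr1 lie left of the matching median in both scalings at P5.

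Promoter sequence is shown for 4 of the 5 genes that fell at P5, so that the start regions of genes that fell at different distances from the targeted genes can be read side by side. Stmn1, the fifth, has no entry. The sequences are from RefSeq on GRCm38.p6, 5′ to 3′ on the strand of the gene, and end at the last base before the annotated gene. Capitals mark 3 promoter motifs, searched on both strands and counted apart where they overlap. The GC box, a motif of SP1-type factors, reads GGGCGG. The E box, a motif of basic helix-loop-helix factors, reads CACGTG, and the CCAAT box, a motif of NF-Y, is named by its letters. Dhdds lies at chr4:134000919-134001132 (minus strand), Brwd1 at chr16:96082527-96082678 (minus strand), Pcp4 at chr16:96467356-96467605 (plus strand) and Vps26c at chr16:94526831-94526879 (minus strand).
Dhdds: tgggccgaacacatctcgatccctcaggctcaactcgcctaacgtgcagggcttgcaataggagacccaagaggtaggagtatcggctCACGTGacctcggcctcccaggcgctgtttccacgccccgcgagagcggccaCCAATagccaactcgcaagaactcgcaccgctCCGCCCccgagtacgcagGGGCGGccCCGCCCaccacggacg
Brwd1: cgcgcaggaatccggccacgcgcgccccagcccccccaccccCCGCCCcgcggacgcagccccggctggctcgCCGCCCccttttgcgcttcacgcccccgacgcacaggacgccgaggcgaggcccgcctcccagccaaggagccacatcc
Pcp4: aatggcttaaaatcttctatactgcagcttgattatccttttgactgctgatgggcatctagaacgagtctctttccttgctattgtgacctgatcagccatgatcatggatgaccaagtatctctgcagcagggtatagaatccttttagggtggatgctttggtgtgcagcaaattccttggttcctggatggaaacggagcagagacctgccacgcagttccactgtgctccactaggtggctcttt
Vps26c: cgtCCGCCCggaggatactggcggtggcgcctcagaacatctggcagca

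Among all 32851 RefSeq windows of 300 bases around a start (250 before it and 50 after), 35.7% hold a GC box, 37.4% a CCAAT box, 7.15% an E box and 13.6% the TATA box letters TATAAA, on either strand. The printed stretch of Dhdds holds 3 GC boxes, 1 CCAAT box and 1 E box, that of Brwd1 2 GC boxes and that of Vps26c 1 GC box. In the stretch of Pcp4 none of the 4 motifs occurs. The printed stretches are shorter than the windows of 300 bases behind these shares. Counted over full windows, Pcp4 has 1 CCAAT box, Dhdds 2 CCAAT boxes and Brwd1 3 GC boxes, with the other counts of these genes unchanged. The full windows hold 30 CpG dinucleotides for Dhdds, 52 for Brwd1, 40 for Vps26c and 6 for Pcp4, where the median of all windows is 7. Pcp4 thus lay near the median, and the other 3 well above it. Of the 10 genes 9 had a window, and none of those windows holds the TATA box letters.

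Dhdds is the gene next to Hmgn2. It encodes the catalytic subunit of the enzyme that makes the long polyprenol precursor of dolichol, the lipid on which N-glycans are assembled. Its annotated span (chr4:133969028-134000918, GRCm38) begins 377 bp beyond that of Hmgn2 (chr4:133964738-133968650), and both genes are read from the minus strand, so that the end of Dhdds faces the start of Hmgn2. At E17 Dhdds stood at 12.7, 13.3 and 11.3 RPKM in wild type and at 7.48, 8.68 and 8.28 in DKO. The groups did not overlap, and Dhdds fell by 34.6% (log2 fold change -0.56 with SE 0.08, adjusted p = 0.00159; scaled -0.82, adjusted p = 0.000365).

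At P5 the level of Dhdds was 12.9, 10.9 and 10.5 RPKM in wild type and 3.83, 3.95 and 3.90 in DKO. Again no library of one genotype reached the other, and Dhdds fell by 65.9% (log2 fold change -1.34 with SE 0.08, adjusted p = 3.04e-06; scaled -1.14, adjusted p = 8.35e-06). The difference between the stages itself passed (P5 minus E17 -0.78, adjusted p = 6.90e-06; scaled -0.32, adjusted p = 0.00627). Among the 136 genes tested within 5 Mb of Hmgn2 at P5, Dhdds had the lowest scaled value, followed by Id3 at -0.80, and at E17 it was 4th lowest of 154. Over all genes the scaled value of Dhdds lay at percentile 0.420 at P5 and 1.72 at E17. About 710 to 1600 reads per library at E17 and 210 to 930 at P5 stood behind these values, estimated from the depth and the length of the main transcript.

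The 2 leading transcripts of Dhdds at E17 both fell. Dhdds-209, of 3219 bases in 9 exons, averaged 7.64 RPKM in wild type and 5.57 in DKO (log2 fold change -0.40, adjusted p = 0.0244; scaled -0.65, adjusted p = 0.00907). Dhdds-204, of 2038 bases in 9 exons, averaged 3.24 against 1.33 RPKM (-0.86, adjusted p = 0.00867; scaled -1.04, adjusted p = 0.0158). Neither transcript passed without DKO 3 (adjusted p = 0.0665 and 0.0709), and Dhdds-209 did not pass without WT 2 (0.0686) or 3 (0.0687). In all, 4 of 18 tested member transcripts passed at E17, where 4.34% of all 23652 transcripts did (2 upward against 2.46%, 2 downward against 1.88%). The count was 2 without WT 2, 1 without WT 3, 2 without DKO 1, 2 without DKO 2, 0 without DKO 3 and 0 with no filter on low values. At P5 the leading model NM_001362959 stood at 9.43, 8.18 and 8.20 RPKM in wild type and at 1.79, 2.42 and 2.90 in DKO (-1.52, adjusted p = 0.000389; scaled -1.34, adjusted p = 0.000657). The split between transcripts of 1 gene is the estimate of the authors' software.

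Summed mesenchyme markers stood lower in DKO at both stages, as Dhdds did, with 4 of 7 markers falling at E17 and 3 of 7 at P5. Their part in the fall of Dhdds was not tested. The genes whose scaled values ran most like those of Dhdds within each stage were Tmem119 (Pearson r 0.994 at E17 and 0.983 at P5), Col24a1, a collagen (0.981 and 0.978), and Ltbr, the lymphotoxin beta receptor (0.977 and 0.999). These r are over 6 libraries per stage, which share the genotype difference and the scaling, and are given as a description over 11050 genes compared. Of 22 other genes of dolichol and N-glycan assembly, none passed in both scalings at E17, and 3 fell and none rose at P5, a smaller share than that of all genes that fell (30.8%). Dolpp1, which recycles dolichol pyrophosphate, averaged 6.54 in wild type and 4.08 RPKM in DKO at P5 (-0.56, adjusted p = 0.000979; scaled -0.37, adjusted p = 0.00967). The median log2 fold change of the list was 0.24 at E17 (scaled -0.03) and -0.16 at P5 (scaled 0.04), close to that of all genes.

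Stmn1 encodes stathmin, a phosphoprotein that destabilises microtubules and is abundant in dividing cells and in developing neurons. It lies 499.7 kb from Hmgn2 (chr4:134468320-134473843). It had the highest level of the 10 genes per length, with 294, 300 and 261 RPKM in wild type and 382, 460 and 430 in DKO at E17. Every double knockout library was above every wild-type one, a rise of 48.6% (0.57 with SE 0.10, adjusted p = 0.00238; scaled 0.28, adjusted p = 0.0276). The scaled call was lost without WT 3 (adjusted p = 0.102), DKO 2 (0.0878) or DKO 3 (0.0992), and with no filter on low values (0.0931).

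At P5 the direction was the opposite. Stmn1 stood at 90.5, 90.3 and 85.3 RPKM in wild type and at 48.5, 50.6 and 46.2 in DKO. The groups did not overlap, and Stmn1 fell by 45.4% (-0.86 with SE 0.06, adjusted p = 3.47e-06; scaled -0.64, adjusted p = 3.66e-05). The difference between the stages passed at -1.43 (adjusted p = 8.62e-08; scaled -0.92, adjusted p = 1.23e-06).

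Markers of 4 lists were higher in DKO at E17 and lower at P5 in their summed level without overlap, as Stmn1 was. These sums are as deposited. Counted so, 60.9% of all genes were higher without overlap at E17 and 61.8% lower at P5. Summed RPKM of 5 proliferation markers was 282 to 305 in wild type and 376 to 405 in DKO at E17, with 2 of 5 rising, and 60.9 to 67.0 against 36.4 to 37.2 at P5, with 5 of 5 falling. Summed RPKM of 6 markers of neurons and glia was 13.5 to 14.9 against 36.1 to 37.8 at E17, with 2 of 5 tested rising, and 70.7 to 115 against 34.2 to 44.9 at P5, with 1 of 3 tested rising and 1 falling. For red cells the sums were 3546 to 4400 against 6501 to 13046 at E17, with 3 of 5 rising, and 810 to 886 against 317 to 722 at P5, with 3 of 3 tested falling. For macrophages they were 45.7 to 54.2 against 60.9 to 66.3 at E17, with none of 4 passing, and 20.0 to 24.8 against 14.8 to 16.1 at P5, with 2 of 4 falling. Their part in the change of Stmn1 was not tested. Genes that ran most like Stmn1 within each stage included Tacc3, which acts on the mitotic spindle (r 0.990 at E17 and 0.980 at P5), and Ruvbl2 (0.986 and 0.975).

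Of the 3 other stathmin genes, which are known mainly from neurons, 2 rose at E17, where 6.61% of all genes did. Stmn2, also on the marker list of neurons and glia, averaged 1.22 in wild type and 5.97 RPKM in DKO (1.65, adjusted p = 1.65e-05; scaled 1.45, adjusted p = 0.000135). Stmn3 averaged 0.239 against 1.74 RPKM (1.14, adjusted p = 0.000143; scaled 1.02, adjusted p = 0.000480). With 0.248, 0.249 and 0.221 RPKM in wild type, Stmn3 reached the filter only through the DKO libraries, and its rise is a description. Only Stmn2 reached the filter at P5, at -0.42 (scaled -0.22), and it did not pass (adjusted p = 0.0855; scaled 0.384).

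Trnp1 and Kdf1 lie on the other side of Hmgn2, 466.2 and 433.9 kb away (chr4:133491100-133498550 and chr4:133518963-133530790). Trnp1 encodes a nuclear protein known for its control of progenitor division in the developing cortex. Its level at E17 was 2.73, 2.35 and 2.96 RPKM in wild type and 5.15, 5.42 and 5.104 in DKO. The groups stood well apart, with a rise of 94.9% (0.76 with SE 0.08, adjusted p = 0.000508; scaled 0.53, adjusted p = 0.00713). About 110 to 340 reads per library stood behind these low values.

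At P5 Trnp1 stood at 5.77, 7.73 and 6.55 RPKM in wild type and at 6.47, 5.85 and 7.07 in DKO, so that the groups overlapped (-0.04, 95% confidence interval -0.26 to 0.18, adjusted p = 0.752; scaled 0.16, adjusted p = 0.249). The difference between the stages was -0.80 (adjusted p = 1.98e-05; scaled -0.38, adjusted p = 0.0333). Its scaled part was lost without WT 2 (adjusted p = 0.0729) or DKO 1 (0.0649) or 2 (0.0523) at E17, and without WT 2 (0.0922) or 3 (0.0747) or DKO 1 (0.0610) or 2 (0.0928) at P5.

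Kdf1, keratinocyte differentiation factor 1, acts in the switch of epidermal cells from division to differentiation. At E17 it ranged from 5.55 to 6.25 RPKM in wild type and from 8.62 to 8.89 in DKO (0.52 with SE 0.07, adjusted p = 0.00111; scaled 0.26, adjusted p = 0.0260). The scaled call was lost without WT 2 (adjusted p = 0.0684) or 3 (0.0892), without DKO 1 (0.0812), 2 (0.0605) or 3 (0.0778), and with no filter (0.0686). At P5 Kdf1 ranged from 9.44 to 10.5 against 9.0 to 9.18 RPKM and did not pass (-0.12, adjusted p = 0.120; scaled 0.08, adjusted p = 0.178). Summed RPKM of 6 markers of cornifying epithelium was 118 to 185 in wild type and 172 to 382 in DKO at E17, with 3 of 4 tested rising. At P5 Flg and Ivl were not listed, and the sum of the other 4 markers was 20.7 to 22.9 against 20.8 to 23.3, with 1 falling. The part of these markers in the change of Kdf1 was not tested.

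No tested Kdf1 transcript passed in both scalings at E17. At P5 the 2 transcript models of Kdf1 moved in opposite directions under a gene total that did not pass. GENCODE links both models to the same transcript of 4 exons and 1708 bases. How reads were split between the 2 models was not tested. NM_001083916 stood at 4.63, 4.31 and 3.28 RPKM in wild type and at 1.94, 1.85 and 2.48 in DKO (-0.71, adjusted p = 0.00534; scaled -0.55, adjusted p = 0.0158). NM_133707 stood at 5.85, 5.63 and 6.16 against 7.09, 7.15 and 6.70 RPKM (0.21, adjusted p = 0.0497; scaled 0.41, adjusted p = 0.00692). As a share of the gene, NM_001083916 went from 40.8% on average in wild type to 23.0% in DKO. Both calls were narrow. NM_133707 did not pass with any 1 library left out (adjusted p = 0.0778, 0.125 and 0.0604 without WT 1, 2 and 3, and 0.130, 0.135 and 0.0814 without DKO 1, 2 and 3), and NM_001083916 did not pass without WT 1 (0.0523) or 2 (0.0507).

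Among 8 other keratinocyte differentiation genes tested at E17, where 6.61% of all genes rose, 2 rose and none fell. These were Trp63, the master regulator of stratified epithelium (20.4 to 35.3 RPKM on average, 0.76, adjusted p = 0.000328; scaled 0.48, adjusted p = 0.00375), and Ovol1 (0.61, adjusted p = 0.000963; scaled 0.36, adjusted p = 0.0246). Trp63 is also on the list of dental epithelium markers. Of 6 tested at P5, where 30.8% of all genes fell, 3 fell and none rose: Sfn, which encodes 14-3-3 sigma (156 to 92.3 RPKM, -0.75, adjusted p = 5.63e-06; scaled -0.53, adjusted p = 3.66e-05), Ripk4 (-0.44; scaled -0.23) and Chuk, the kinase IKK alpha (-0.47; scaled -0.28). Ovol1 did not pass without WT 2 (adjusted p = 0.0659) or 3 (0.0839) or DKO 1 (0.0595) or 3 (0.0756), and Chuk did not without WT 1 (0.0593) or 3 (0.0749) or DKO 1 (0.0572). Ripk4 did not pass without WT 3 (0.0587) or DKO 2 (0.0541).

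Of the 6 members near Hmgn2, Cnksr1 and Gpatch3 had the lowest WT levels at P5 and, with Trnp1, at E17. Cnksr1, a scaffold protein of RAS and RAF signalling, lies 259.4 kb from Hmgn2 (chr4:134228041-134238399). It ranged from 2.33 to 2.56 RPKM in wild type and from 3.53 to 4.09 in DKO at E17, and rose (0.50 with SE 0.08, adjusted p = 0.00200; scaled 0.28, adjusted p = 0.0275). The scaled call was lost without WT 2 (adjusted p = 0.0685) or 3 (0.0671), without DKO 1 (0.0557), 2 (0.0776) or 3 (0.116), and with no filter (0.0657). At P5 Cnksr1 stood at 4.05, 2.73 and 2.86 against 2.03, 2.48 and 3.02 RPKM, with groups that overlapped (-0.26, 95% confidence interval -0.55 to 0.03, adjusted p = 0.105; scaled -0.09, adjusted p = 0.567). Without WT 1, which stood highest, the value as deposited was -0.12. Of the RAF scaffold and kinase list, none of 5 passed in both scalings at E17. At P5, where 7.35% of all genes rose and 30.8% fell, 2 of 6 rose, with the kinase gene Braf at 0.27 (scaled 0.46), and 1 fell, the scaffold gene Cnksr3 at -0.64 (scaled -0.44).

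Gpatch3 encodes a protein with a G-patch, a domain found in partners of RNA helicases. It lies 380.5 kb from Hmgn2 (chr4:133574745-133584243). At P5 it stood at 2.29, 2.40 and 2.74 RPKM in wild type and at 3.20, 2.995 and 3.63 in DKO. The groups did not overlap, and Gpatch3 rose (0.30 with SE 0.09, adjusted p = 0.0117; scaled 0.46, adjusted p = 0.00250), with an adjusted p of 0.0556 as deposited without DKO 3. At E17 it stood at 1.88, 2.08 and 2.37 against 2.77, 2.77 and 2.83 RPKM and passed only as deposited (0.29, adjusted p = 0.0158; scaled 0.08, adjusted p = 0.539). Of 6 other G-patch genes none passed in both scalings at E17, and at P5, where 7.35% of all genes rose and 30.8% fell, 1 rose (Gpatch2, 0.45; scaled 0.65) and 3 fell, Gpatch4 (-0.56; scaled -0.37) and Gpatch1 (-0.54; scaled -0.36) among them.

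Brwd1 is the member nearest to Hmgn1, 38.09 kb away (chr16:95992092-96082526). It encodes a protein with bromodomains and WD repeats that reads acetylated histones and belongs to a family of substrate receptors of the CUL4 ubiquitin ligase. At E17 it stood at 17.5, 18.2 and 19.7 RPKM in wild type and at 16.6, 18.6 and 18.9 in DKO. The groups overlapped, and Brwd1 passed only after scaling (-0.03, adjusted p = 0.709; scaled -0.31, adjusted p = 0.0169). At P5 the WT libraries held 10.4, 9.85 and 9.67 RPKM and the DKO libraries 7.14, 7.24 and 7.47, with no overlap, and Brwd1 fell by 27.1% (-0.41 with SE 0.06, adjusted p = 0.000334; scaled -0.21, adjusted p = 0.00765).

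Of the 3 Brwd1 transcripts at P5, only 1 passed in both scalings. NM_176928, which GENCODE links to a short form of 5 exons and 2382 bases (chr16:96066668-96082526), stood at 4.22, 4.44 and 4.02 RPKM in wild type and at 1.78, 1.82 and 1.92 in DKO, and fell (-0.88, adjusted p = 0.000651; scaled -0.71, adjusted p = 0.00151). Of the 2 models linked to the full-length form of 42 exons, NM_001103179 stood at 3.90, 3.58 and 3.34 against 3.89, 3.85 and 4.10 RPKM and did not pass as deposited (0.11, adjusted p = 0.370; scaled 0.28, adjusted p = 0.0276). The other, NM_145125, averaged 2.16 against 1.496 RPKM (-0.34, adjusted p = 0.0452; scaled -0.19, adjusted p = 0.213). In share of the gene, the short form went from 42.4% on average in wild type to 25.3% in DKO and NM_001103179 from 36.0% to 54.2%.

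At E17 the short form made up 41.0% of Brwd1 on average in wild type and 46.0% in DKO, and its level did not pass (0.12, adjusted p = 0.2502; scaled -0.14, adjusted p = 0.211). In all, 8 of 15 tested member transcripts passed at P5, where 24.8% of all 15552 transcripts did (2 upward against 6.95%, 6 downward against 17.9%). The antisense gene Gm15342 within Brwd1 was listed at 0.187 RPKM at most at E17. Of 5 other genes of the BRWD family and the CUL4 ligase none passed in both scalings at E17. At P5, where 30.8% of all genes fell, 2 fell and none rose: Cul4a, the ligase scaffold (19.6 to 13.5 RPKM, -0.51; scaled -0.30), and Phip, a relative of Brwd1 (-0.37; scaled -0.20), the latter not passing without WT 1 (adjusted p = 0.0708) or 2 (0.0896) or DKO 1 (0.0840), 2 (0.0720) or 3 (0.0504).

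**Figure D3:**
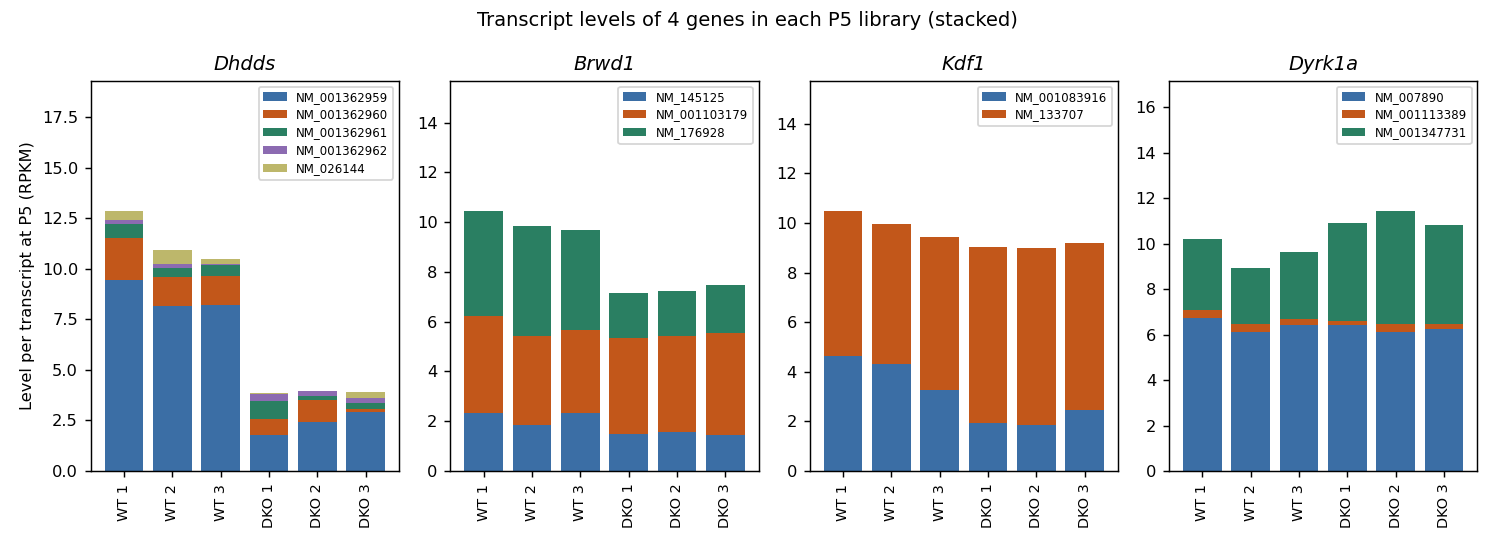
Level per transcript model in RPKM (y axis, linear from 0, stacked) in each P5 library (x axis) for Dhdds, Brwd1, Kdf1 and Dyrk1a. In the double knockout the Dhdds columns shrink mainly in NM_001362959 and the Brwd1 columns mainly in NM_176928, while NM_001347731 of Dyrk1a is taller.

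Pcp4 lies 339.9 kb from Hmgn1 on the other side from Brwd1 (chr16:96467606-96525793). It encodes a small peptide that binds calmodulin and is best known from Purkinje cells. Its level at E17 was 7.88, 10.1 and 9.55 RPKM in wild type and 16.3, 18.4 and 16.6 in DKO. All double knockout libraries were higher, by 86.6% on average (0.84 with SE 0.09, adjusted p = 0.000618; scaled 0.57, adjusted p = 0.00820). With no filter on low values the scaled call was lost (adjusted p = 0.0593).

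At P5 Pcp4 was lower in DKO, at 11.97, 14.04 and 10.2 RPKM in wild type against 4.94, 4.63 and 2.72. The groups stayed apart, and Pcp4 fell by 66.1% (-1.38 with SE 0.16, adjusted p = 6.24e-05; scaled -1.19, adjusted p = 0.000751). The difference between the stages, -2.22 (adjusted p = 7.30e-08; scaled -1.75, adjusted p = 1.89e-05), was the largest of the 10 genes. Pcp4 had the highest scaled value of the 48 genes tested within 5 Mb of Hmgn1 at E17, followed by Runx1 at 0.38, and the lowest of 38 at P5, followed by Get1 at -0.78. Its main transcript is short (641 bases), so only about 49 to 240 reads per library at P5 and 170 to 430 at E17 stood behind these values.

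The summed levels of the same 4 lists, of neurons and glia, proliferating cells, red cells and macrophages, moved in the direction of Pcp4 at both stages, by the values given for Stmn1, and their part in the change of Pcp4 was not tested. As deposited, most genes moved in these directions, with a median log2 fold change of 0.25 at E17 and -0.25 at P5. The neuronal marker Elavl4 lay under the filter at both stages and the glial marker Sox10 at P5. Igsf5, whose gene model overlaps Pcp4 on the same strand, was listed at 0.0674 RPKM at most. Genes that ran most like Pcp4 within each stage were Denn2b (r 0.972 at E17 and 0.963 at P5), Ankrd6 (0.962 and 0.962) and Nelfb (0.962 and 0.980). Of 6 calmodulin genes and their regulators, 2 rose at E17, where 6.61% of all genes rose, and 2 fell at P5, about the share of all genes that fell (30.8%). Gap43, a calmodulin-binding protein of growing axons, averaged 9.71 in wild type and 19.4 RPKM in DKO at E17 (0.93; scaled 0.66), and the calmodulin gene Calm2 rose with it (0.57; scaled 0.28). Calm2 did not pass without WT 3 (adjusted p = 0.0804) or DKO 1 (0.0548) or 3 (0.0752). Calm3, a calmodulin gene, fell at P5 (-0.55; scaled -0.32).

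**Figure D4:**
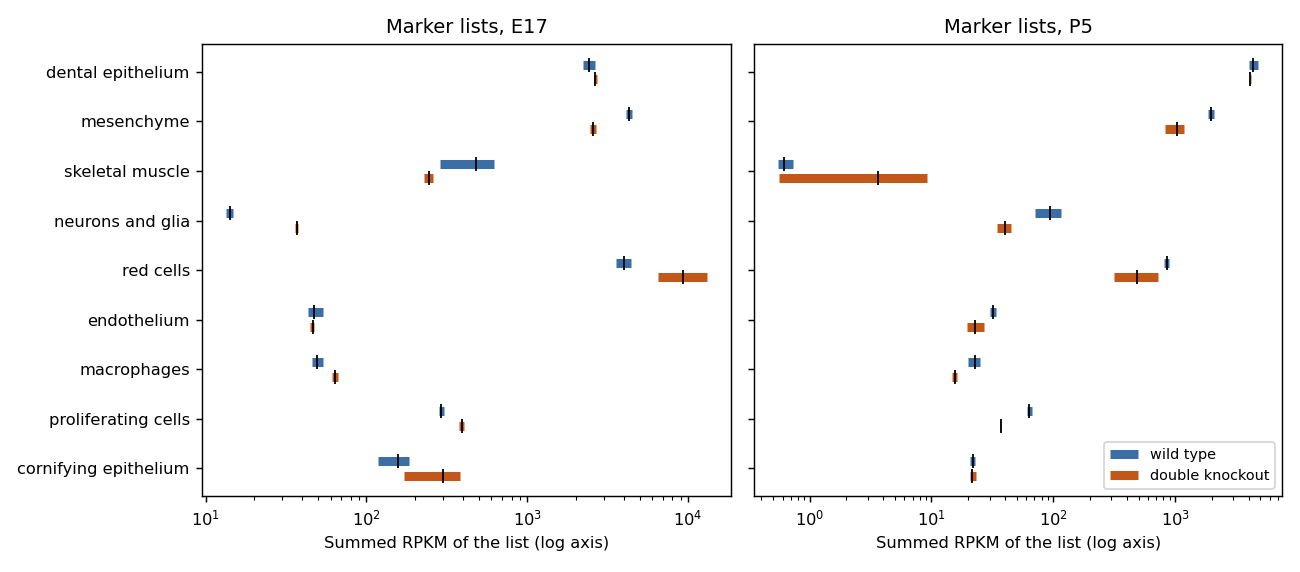
Summed RPKM as deposited (x axis, log scale) of 9 marker lists at E17 and P5, with bars from the lowest to the highest of 3 libraries per genotype and ticks at the mean. As deposited, most genes were higher in DKO at E17 and lower at P5. Markers of neurons and glia, proliferating cells, red cells and macrophages are higher in DKO at E17 and lower at P5, as Stmn1 and Pcp4 are, and mesenchyme markers are lower at both stages, as Dhdds is.

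Vps26c encodes a subunit of retriever, a complex that returns membrane proteins from endosomes to the cell surface. It lies 1594 kb from Hmgn1 (chr16:94497783-94526830). At E17 it stood at 11.01, 10.3 and 9.61 RPKM in wild type and at 12.9, 12.5 and 12.4 in DKO and passed only as deposited (0.27, adjusted p = 0.00964; scaled 0.00, adjusted p = 0.991). Its P5 values were 13.4, 12.6 and 11.8 RPKM in wild type against 6.25, 6.20 and 6.14. The P5 groups were far apart, and Vps26c fell by 50.9% (-0.92 with SE 0.07, adjusted p = 5.63e-06; scaled -0.72, adjusted p = 2.24e-05), and the stages differed by -1.19 (adjusted p = 1.75e-08; scaled -0.72, adjusted p = 1.11e-05). The antisense gene Gm31323 was listed at 0.0856 RPKM at most at E17.

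Of 19 other genes of retriever, its partner complex and retromer, 3 rose and none fell at E17, where 6.61% of all genes rose, all COMMD genes of the partner complex. Commd8 averaged 14.7 in wild type and 23.0 RPKM in DKO (0.61; scaled 0.33), Commd1 31.2 and 46.2 (0.55; scaled 0.27), and Commd10 13.1 and 18.2 (0.44; scaled 0.17). These scaled calls were narrow: without WT 3 the adjusted p was 0.0573, 0.0932 and 0.142, and without DKO 3 it was 0.0588, 0.105 and 0.173, in that order. Commd1 and Commd10 also did not pass without WT 2 (0.0623 and 0.0953) or DKO 2 (0.0665 and 0.0713), nor Commd10 without DKO 1 (0.140). At P5, 3 fell and none rose, a smaller share than that of all genes that fell (30.8%): Ccdc93 (2.64 to 1.5 RPKM, -0.54; scaled -0.39), Commd6 (-0.38; scaled -0.17) and Commd5 (-0.38; scaled -0.17), the last not passing without WT 3 (adjusted p = 0.131) or DKO 1 (0.0882) or 3 (0.0899). The list's median was -0.26 at P5 (scaled -0.06), near that of all genes.

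Dyrk1a, a dosage-sensitive protein kinase that phosphorylates NFAT and cell cycle proteins, lies 1425 kb from Hmgn1 (chr16:94570010-94695517), beside Vps26c. At P5 it moved the other way from Vps26c, with 10.2, 8.95 and 9.63 RPKM in wild type and 10.9, 11.4 and 10.8 in DKO. The groups did not overlap, but the rise was small at 15.3% (0.19 with SE 0.07, adjusted p = 0.0296; scaled 0.39, adjusted p = 0.000605). As deposited it did not pass without WT 2 (adjusted p = 0.112) or 3 (0.0571) or without DKO 1 (0.0628), 2 (0.106) or 3 (0.0568). At E17 it stood at 8.32, 8.81 and 9.48 against 9.99, 9.75 and 10.3 RPKM and did not pass (0.16, adjusted p = 0.0684; scaled -0.10, adjusted p = 0.354).

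Among the Dyrk1a transcripts at P5, NM_001347731 rose, at 3.13, 2.49 and 2.94 RPKM in wild type and 4.32, 4.98 and 4.37 in DKO (0.53, adjusted p = 0.00563; scaled 0.71, adjusted p = 0.00242). The main model NM_007890 averaged 6.43 against 6.26 RPKM and did not pass (-0.03, adjusted p = 0.744; scaled 0.16, adjusted p = 0.0960). Of the other DYRK kinases and the NFAT axis, none of 12 passed in both scalings at E17. At P5, 1 of 10 rose and 2 fell, where 7.35% and 30.8% of all genes did. Dyrk2, a related kinase, rose from 11.8 to 22.7 RPKM (0.89, adjusted p = 4.25e-06; scaled 1.11, adjusted p = 3.22e-06), and the transcription factor genes Nfatc4 (5.95 to 3.34 RPKM, -0.68; scaled -0.49) and Nfatc1 (1.75 to 0.926 RPKM, -0.50; scaled -0.38) fell.

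To place the 10 genes among their neighbours, all tested genes with a span within 2 Mb of Hmgn1 or Hmgn2 were counted, the 10 included. At E17, 9 of 103 passed (8.74%; 6 rose and 3 fell), the 6 members that passed among them, against 9.69% of all genes. That count was 4 without WT 3, 5 without DKO 2, 4 without DKO 3 and 2 with no filter on low values. At P5, 39 of 84 passed (46.4%; 5 rose and 34 fell), the 7 members that passed among them, against 38.1% of all genes. Within 0.25 Mb of Hmgn1, 0 of 5 passed at E17, where the share of all genes was 9.69%, and all 3 tested fell at P5, where 30.8% of all genes fell. Within 0.25 Mb of Hmgn2, 1 of 8 passed at E17, Dhdds, and 4 of 6 fell at P5. All these counts include members, chosen with earlier results known, among them Brwd1 and Dhdds within 0.25 Mb. They are counts of few genes and a description only.

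On the side of each targeted gene away from Dhdds or Brwd1, the nearest tested gene did not pass in both scalings at E17. Rps6ka1, a kinase gene 76.94 kb from Hmgn2 at lower coordinate, passed as deposited and not after scaling (0.45, adjusted p = 0.00186; scaled 0.18, adjusted p = 0.0624). Get1, which encodes an insertion factor for tail-anchored membrane proteins and lies 17.67 kb from Hmgn1 at higher coordinate, likewise passed only as deposited (0.25, adjusted p = 0.0249; scaled -0.01, adjusted p = 0.951). At P5 both fell. Get1 stood at 4.51, 5.03 and 4.16 RPKM in wild type and at 1.90, 1.61 and 2.18 in DKO (-0.94, adjusted p = 2.64e-05; scaled -0.78, adjusted p = 0.000212), with no overlap. Rps6ka1 fell less (-0.40, adjusted p = 0.00120; scaled -0.20, adjusted p = 0.0389), and its scaled call was lost without WT 1 (0.0978) or 3 (0.143) or DKO 1 (0.0847), 2 (0.107) or 3 (0.0613).

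Of the neighbours that are not members, those that passed in both scalings without overlap at E17 all lay more than 1 Mb away. They were Snora73a, a small nucleolar RNA gene 1612 kb from Hmgn2 (-1.25; scaled -1.46), the muscle gene Myom3 at 1791 kb (-0.75; scaled -0.96), and Epb41, which encodes a red cell membrane skeleton protein, at 1889 kb (0.54; scaled 0.26). Skeletal muscle markers summed to 286 to 627 RPKM in wild type and 229 to 259 in DKO, with 5 of 6 falling, and red cell markers to 3546 to 4400 against 6501 to 13046, with 3 of 5 rising. Their part in the values of Myom3 and Epb41 was not tested. Snora73a lies within the annotated span of Snhg3, which was higher in DKO (0.49; scaled 0.21) and passed only as deposited. How reads were split between them was not tested. The groups of Snora73a lay close, with DKO 1 at 4.67 and WT 2 at 5.01 RPKM. Snora73a did not pass without WT 1 (adjusted p = 0.0799) or 3 (0.117) or DKO 2 (0.0634) or 3 (0.105), nor Epb41 without WT 1 (0.0666) or 3 (0.105) or DKO 2 (0.103) or 3 (0.126).

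At P5 the largest changes as deposited near Hmgn1, among genes that passed without overlap and after Get1 and the members, were those of Erg, a transcription factor gene of endothelium at 534.0 kb (-0.57; scaled -0.43), and Psmg1, a proteasome assembly gene at 129.7 kb (-0.55; scaled -0.35). Endothelial markers summed to 30.4 to 33.8 RPKM in wild type and 19.6 to 26.8 in DKO, with 2 of 4 falling, and their part in the value of Erg was not tested. Ripk4 lies 1614 kb from Hmgn1. Hlcs, at 1807 kb, fell (-0.40; scaled -0.24) and did not pass without WT 1 (adjusted p = 0.0686) or 3 (0.109) or DKO 1 (0.0842) or 3 (0.0669). By the same rule those near Hmgn2 included Rsrp1 at 954.9 kb (-0.75; scaled -0.53), Sfn at 362.6 kb, Taf12 at 1669 kb (-0.74; scaled -0.54) and the stress-response gene Sesn2 at 1454 kb (-0.70; scaled -0.50). All of these lay above Dhdds at -1.14 on the scaled values.

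**Figure D5:**
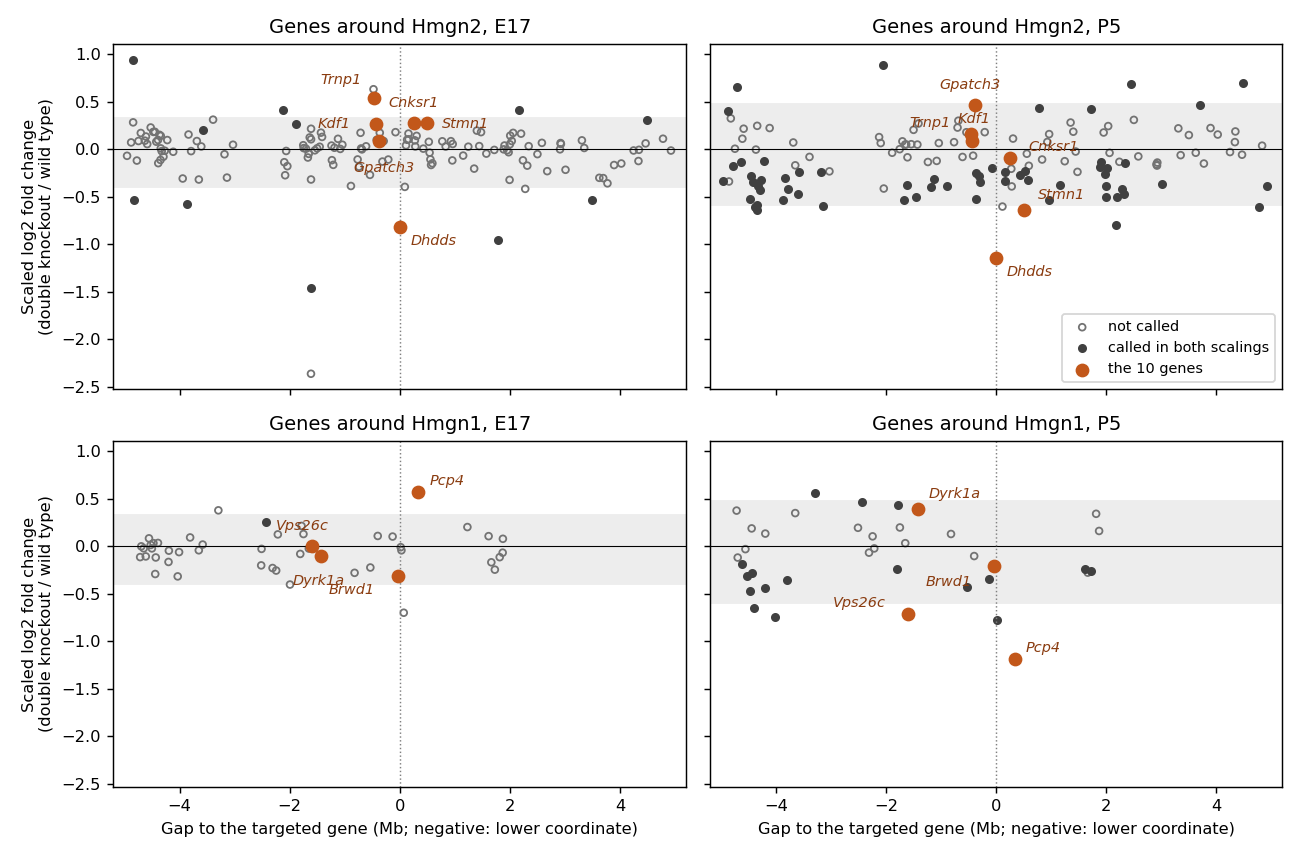
Scaled log2 fold change (y axis) of every tested gene against its gap in Mb to Hmgn2 (upper row) or Hmgn1 (lower row) at E17 and P5. Filled dark points passed in both scalings, open points did not, orange points are the 10 genes, called or not, and the grey band spans the 5th to 95th percentile of all genes. Dhdds lies below the band at both stages, and Pcp4 lies above it at E17 and below it at P5.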

How the data were processed

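RNA of 12 of the 18 libraries (wild type and DKO at E17 and P5, 3 each) is used here. The table of the remaining stage holds none of the 10 genes and was not used. Epithelium was freed with dispase (1 U/ml), and 1 µg of RNA with integrity above 7 was depleted of ribosomal RNA, per the labels' protocols. Per the submitters' processing notes, the authors used Partek on mm10. Aligner, annotation and strand setting: not given in the sources used here, so reads of overlapping genes on opposite strands may not be told apart. The deposited values are taken as RPKM per transcript, a unit that no source states. Of low values, 89.0% to 95.2% per library were whole multiples of 1 read within 0.1. The read depth of each library was chosen to raise this share, which rests on 147 to 165 values per library at P5. Other units scaled by length and library would give such steps too, so the check cannot settle the unit. Read as RPKM, the steps give 16.65 to 40.8 M mapped reads per library. On that reading 1 read on 1 kb is 0.0245 to 0.0601 RPKM. The deposited alignment counts were used for depth only.

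RPKM were summed per symbol. Genes at 1 RPKM or more in at least 3 of 6 libraries were fitted on log2(RPKM + 1) with limma 3.58.1 in R 4.3.3 (eBayes with trend, two-sided, Benjamini-Hochberg over all genes of the stage), which understates changes of low genes. All 10 genes passed this filter at both stages. Transcripts were fitted likewise, over all transcripts. Stages were fitted apart, since transcript names differ in form, and levels are not compared across them. The stage difference divides the gap between both fold changes by their combined SE and is adjusted over 11050 genes. Tested on simulated data with 200 genes changed, the fit recovered 97.0% of changes of log2 size 1 and 99.0% of size 2 at E17 (13728 genes), and 97.0% and 100% at P5 (11423 genes). The simulation used 1 fit without scaling and held no common shift. Its changed genes had a wild-type mean of log2(RPKM + 1) above 2. Calls in both scalings, lower genes and changes under size 1, as most called here were, were not tested in this way. Positions are from GENCODE M21 and promoter windows from RefSeq, both GRCm38.

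The 10 genes, the partner and marker lists and the tests were chosen with earlier results of these data known. Other genes were named by rule: the nearest tested gene on each side and up to 5 largest changes per locus and stage within 2 Mb that passed without overlap, up to 3 smallest p per partner list and stage, and the 3 genes most alike to each member that passed at both stages. A few genes that these rules name are not reported here. Id3 and Runx1 were named after their values were seen. Alternatives were other scalings, filters, pseudocounts, variance models, windows, a minimum change, the replicate block and leaving out each library.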

Additional observations from a re-analysis of the deposited data

Results flagged for a closer look

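For 6 of the 10 genes the genotype difference itself differed between the stages (difference of log2 fold changes, P5 minus E17, adjusted p under 0.05 in both scalings), all of them lower at P5, where 30.1% of all 11050 genes passed, 27.5% below 0 and 2.61% above. The difference was -2.22 for Pcp4 (scaled -1.75), -1.43 for Stmn1 (scaled -0.92), -1.19 for Vps26c (scaled -0.72), -0.80 for Trnp1 (scaled -0.38), -0.78 for Dhdds (scaled -0.32) and -0.75 for Cnksr1 (scaled -0.37). Pcp4, Stmn1, Vps26c and Dhdds passed with each library left out in turn. Trnp1 and Cnksr1 did not pass with median-of-ratios scaling (adjusted p = 0.0639 and 0.0783). For Trnp1 the scaled difference (adjusted p = 0.0333) was lost without WT 2 (0.0729), DKO 1 (0.0649) or DKO 2 (0.0523) at E17, and without WT 2 (0.0922), WT 3 (0.0747), DKO 1 (0.0610) or DKO 2 (0.0928) at P5. For Cnksr1 the scaled difference (adjusted p = 0.0473) was lost without WT 2 (0.0730) or DKO 2 (0.0654) or 3 (0.0730) at E17, and without WT 1 (0.141) or 3 (0.0664) or DKO 1 (0.144) or 2 (0.0888) at P5. The stages were measured in separate tables with different transcript models, and the part of this in the differences was not tested.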

How the results depend on the processing

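Most calls of the 10 genes at P5 held under most alternatives, and those at E17 less often. An exception at P5 was Dyrk1a, which did not pass without WT 2 or 3 or without DKO 1, 2 or 3. With no filter on low values, 2 genes in place of 6, 2 neighbours within 2 Mb in place of 9 and 0 transcripts in place of 4 passed at E17, where more features enter the adjustment. As deposited only, 64 and 59 neighbours passed at E17 and P5 in place of 9 and 39, and 8 transcripts at E17. After upper-quartile scaling only, 14 neighbours passed at E17. Windows of 1 and 5 Mb held 21 and 84 called neighbours at P5, and 18 within 5 Mb at E17. Asking for a log2 fold change of at least 1 left 0 genes, 0 transcripts and 1 neighbour at E17, 2 genes (Dhdds and Pcp4), 2 transcripts and 2 neighbours at P5, and 1 stage difference, that of Pcp4. With single libraries left out the counts ran from 3 to 6 genes, 0 to 3 transcripts and 4 to 10 neighbours at E17, from 5 to 7, 6 to 8 and 29 to 37 at P5, and from 4 to 7 stage differences. The lower neighbour counts at E17 were 4 without WT 3, 5 without DKO 2 and 4 without DKO 3, and the transcript count at E17 was 3 without WT 1 and at most 2 without any one of the other 5. Of 240 single values of the 10 genes with a library left out, 22 lost and 2 gained a call and 8 turned sign, and of 200 under other settings 8 lost and 1 gained a call. With a library left out, values that were not called ran from -0.070 to 0.022 for Brwd1 at E17 as deposited, from -0.054 to 0.036 for Vps26c at E17 scaled, from -0.19 to 0.019 for Cnksr1 at P5 scaled and from -0.12 to 0.058 for Trnp1 at P5 as deposited, and so turned sign. Of the other genes named as called at E17, Stmn2, Stmn3 and Trp63 passed with no filter and the other 9 did not. Alg6, Commd5, Commd6, Hlcs, Phip and Rps6ka1 did not pass at P5 with median-of-ratios scaling. Same-numbered libraries did not deviate together in a steady way (r -0.01, 0.22 and -0.02 at E17 and -0.22, -0.07 and 0.05 at P5). These r are over deviations from means of 3 libraries and cannot decide whether the numbers pair the libraries. With the replicate block 5 genes passed at E17 and 6 at P5, 8 and 36 neighbours, 3 and 7 transcripts and 5 stage differences. Depth limits Trnp1 and Gpatch3 most at E17, and Pcp4, Gpatch3 and Cnksr1 at P5.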
